A study of Mus musculus with 23 samples.

Results

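The Hox genes are the transcription factor genes that mark position along the head-to-tail axis, and all genes whose symbol names a Hoxa, Hoxb, Hoxc or Hoxd gene were taken from the count files, ordered by cluster and by paralog number. The rule found 38 genes of 38924 gene IDs, with 11 in the Hoxa cluster, 10 in the Hoxb cluster, 9 in the Hoxc cluster and 8 in the Hoxd cluster. The rule used no measured value. The study captured ribosome-bound mRNA from whole spinal cords of 2-week-old mice with RiboTag, a conditional Rpl22 allele that yields an HA-tagged ribosomal protein after Cre recombination, so that anti-HA beads pull down the ribosomes of the cells that express Cre. Cre was driven by ChAT, the choline acetyltransferase gene, which is active in motor neurons and in the other cholinergic cells of the cord. Gars encodes glycyl-tRNA synthetase, and GarsC201R is a mouse model of an inherited peripheral neuropathy carried on 1 allele, and the mice were taken before disease onset.

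The mutant Cre group had 6 libraries with the genotype Rpl+/-, Chat+/- and C201R+/-. The wild-type Cre group had 5 libraries with Rpl+/-, Chat+/- and C201R+/+. The mutant no-Cre group had 6 libraries with Rpl+/-, Chat+/+ and C201R+/-, and the wild-type no-Cre group had 6 libraries with Rpl+/-, Chat+/+ and C201R+/+. All carried 1 tagged allele on the strain background B6.CgxB6.129. In the no-Cre mice no Cre is there to switch the tag on, so their precipitates hold RNA that stays on the beads without it, and they are the background for the tagged cells. No label names a spinal segment.

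Hox genes lie in 4 clusters in which gene order follows the position of expression, from low paralog numbers in the hindbrain and neck to high numbers in the lumbar and sacral cord. In motor neurons Hoxa5 and Hoxc5 are known for the phrenic neurons of the neck, Hoxc6 for the limb-innervating neurons of the brachial cord, Hoxc8 for motor pools of its caudal part, Hoxc9 for the thoracic cord, and Hoxc10 and Hoxd10 for the lumbar limb level. Hox proteins bind DNA with Pbx and Meis partners, their clusters are opened by retinoid and Cdx inputs, and Polycomb proteins keep the unused genes silent.

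The promoters of 4 members are shown first, because the comparison of tagged cells with background turned on Hoxb4 and Hoxb8, which were lower with Cre, and on the neighbouring genes Hoxd9, called higher in mutants, and Hoxd8, called lower in wild type. Each stretch is 300 bases, from 250 before to 50 after the gene start, from RefSeq on GRCm38.p6, written on the gene's strand. Capitals mark matches on either strand to TGATNNAT, a Pbx-Hox site, and to TTTATG, a Cdx site.
Hoxb4 (chr11:96318017-96318316, plus strand): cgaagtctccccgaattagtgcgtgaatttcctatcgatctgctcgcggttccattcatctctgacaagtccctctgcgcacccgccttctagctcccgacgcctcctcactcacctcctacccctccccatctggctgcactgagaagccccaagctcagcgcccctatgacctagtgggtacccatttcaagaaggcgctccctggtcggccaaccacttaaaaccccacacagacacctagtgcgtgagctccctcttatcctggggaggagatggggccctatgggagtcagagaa
Hoxb8 (chr11:96281655-96281954, plus strand): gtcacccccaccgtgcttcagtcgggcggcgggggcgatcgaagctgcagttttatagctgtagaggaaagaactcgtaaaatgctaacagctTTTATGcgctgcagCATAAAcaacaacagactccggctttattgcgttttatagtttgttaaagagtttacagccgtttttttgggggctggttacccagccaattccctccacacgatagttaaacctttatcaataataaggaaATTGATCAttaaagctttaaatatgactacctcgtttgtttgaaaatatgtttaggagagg
Hoxd8 (chr2:74704365-74704664, plus strand): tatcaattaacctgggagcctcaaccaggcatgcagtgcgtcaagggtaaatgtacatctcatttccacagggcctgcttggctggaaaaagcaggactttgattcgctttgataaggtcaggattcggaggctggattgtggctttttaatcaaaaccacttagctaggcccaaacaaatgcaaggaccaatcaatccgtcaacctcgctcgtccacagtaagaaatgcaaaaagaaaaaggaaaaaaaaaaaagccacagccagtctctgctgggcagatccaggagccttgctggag
Hoxd9 (chr2:74697513-74697812, plus strand): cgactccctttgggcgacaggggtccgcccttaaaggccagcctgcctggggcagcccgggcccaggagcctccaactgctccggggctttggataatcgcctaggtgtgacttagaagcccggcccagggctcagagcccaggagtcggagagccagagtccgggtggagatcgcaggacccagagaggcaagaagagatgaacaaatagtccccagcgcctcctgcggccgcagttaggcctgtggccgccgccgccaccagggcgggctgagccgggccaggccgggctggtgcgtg

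Hoxb8 held 1 TGATNNAT match, starting 11 bases before the gene start, and 2 TTTATG matches, starting 157 and 143 bases before it. The other 3 stretches held neither string. The strings did not overlap each other in Hoxb8. TGATNNAT occurred in 8.86% of 32817 promoters of the same length and in 4 of the 23 promoters listed for 21 of the Hox members, and TTTATG occurred in 11.9% of all and in 4 of those 23. The Hoxd9 stretch held 20 CG pairs and the Hoxd8 stretch 6, against a median of 7 over all promoters, and Hoxb4 and Hoxb8 held 14 and 13.

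Matched by gene ID to GENCODE M21 on GRCm38, the Hoxa genes lie on chromosome 6, and the Hoxb genes span chr11:96194316-96368256, the Hoxc genes chr15:102921103-103036852 and the Hoxd genes chr2:74668310-74765142. All 38 are annotated as protein-coding. Gars lies at chr6:55038007-55079500, only 2.78 Mb from the Hoxa cluster, so the Hoxa alleles of the mutants are linked to the C201R allele and a genotype difference there cannot be told apart from linked sequence. Exon bases of 15 members overlap another annotated gene, 8 of them on the same strand and 7 only on the opposite strand. Whether the counting used strand is not given in the sources used here, so the values of these genes, among them Hoxa3, Hoxa7, Hoxb2, Hoxb3, Hoxc5, Hoxc10 and Hoxd3, are uncertain to the extent of the shared exons. The Hoxd3 entry of the files also includes a Hoxd4 transcript, and Hoxd4 was not analysed here as a gene of its own. The Hoxa3, Hoxd3 and Hoxd11 entries include transcripts annotated to Gm28308, Gm28230 and Gm28309, so these values are not of the Hox gene alone. Hoxb4, Hoxb8, Hoxb9, Hoxc6, Hoxc8, Hoxd8 and Hoxd9 share no exon base with another annotated gene.

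Depth was 9031654 to 19671869 expected counts per library, most of it from ribosomal RNA. Outside the ribosomal RNA genes the libraries held 2927104 to 6237428 counts in the mutant Cre group, 1213587 to 4466014 in the wild-type Cre group, 594383 to 4886780 in the mutant no-Cre group and 2170423 to 5582508 in the wild-type no-Cre group. The label of the tagged cells was checked with their defining genes. Chat had 33.7 ± 13.7 counts-per-million (CPM, scaled by trimmed mean of M-values factors; SD, n = 6) in mutant Cre libraries and 56.1 ± 11.8 (n = 5) in wild-type Cre libraries, against 3.12 ± 2.64 and 2.25 ± 1.88 in mutant and wild-type no-Cre libraries (n = 6 each), and 10 of 10 motor neuron and cholinergic markers tested in wild type and 8 of 9 in mutants were called higher with Cre. Glial RNA was lower with Cre but not absent: the summed level of 9 oligodendrocyte genes ran from 802 to 7100 CPM (median 1716) in mutant Cre and 547 to 3013 (median 764) in wild-type Cre libraries, against 7388 to 16875 (median 8653) in mutant no-Cre and 7159 to 13688 (median 9319) in wild-type no-Cre libraries. Motor neuron RNA was not confined to the Cre libraries. The summed level of 11 motor neuron and cholinergic genes ran from 982 to 2830 CPM (median 2462) in mutant Cre libraries. It ran from 2102 to 4097 (median 3573) in wild-type Cre libraries. Without Cre it ran from 253 to 1562 (median 772) in mutants and 280 to 1265 (median 449) in wild type. The mutant ranges overlapped. Titles begin with a number that several libraries share, such as 18405 or 20401, followed by a second number that differs between them. Nothing in the labels says what either number is or whether libraries came from separate mice, so p-values measure the spread between these libraries. In each genotype 3 no-Cre libraries stand apart with small scaling factors (mutant replicates 1, 4 and 5 at 0.125 to 0.354, wild-type replicates 1, 2 and 3 at 0.431 to 0.441, all other no-Cre libraries at 1.19 to 2.17), and results that change without them are given both ways. Of the Cre libraries, wild-type Cre replicate 1 had a factor of 0.458 and the other 10 had 0.873 to 2.53. The no-Cre libraries of small factor also held the most motor neuron RNA of their groups. They had 934 to 1562 CPM in mutants and 529 to 1265 in wild type. The other no-Cre libraries had 253 to 610 in mutants and 280 to 369 in wild type.

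Hox mRNA was a small part of every precipitate. The 38 genes summed to 2047 to 3155 counts per library in the mutant Cre group, 517 to 2381 in the wild-type Cre group, 271 to 2579 in the mutant no-Cre group and 1317 to 2819 in the wild-type no-Cre group. As a share of the counts outside ribosomal RNA this was 0.0560 ± 0.00937% in mutant Cre, 0.0451 ± 0.00469% in wild-type Cre, 0.0590 ± 0.00853% in mutant no-Cre and 0.0542 ± 0.0131% in wild-type no-Cre libraries (SD, n = 6, 5, 6 and 6). Between 25 and 35 of the 38 members had at least 1 read in a library. In these bulk precipitates, fewer cells of a type and less RNA per cell cannot be told apart.

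The profile per length peaked in the middle of the clusters. Hoxc8 was the most abundant member of the Cre precipitates at 8.08 ± 1.79 CPM per kb in mutant Cre and 7.70 ± 2.73 in wild-type Cre libraries. It had 7.56 ± 1.65 in mutant no-Cre and 10.3 ± 4.94 in wild-type no-Cre libraries, so its level cannot be assigned to the tagged cells. In the background precipitates Hoxb8 came first instead, with 22.2 ± 13.7 CPM per kb in mutant no-Cre and 16.0 ± 12.3 in wild-type no-Cre libraries, against 6.75 ± 5.43 and 3.90 ± 0.57 in the mutant and wild-type Cre libraries. Next among wild-type Cre libraries came Hoxc6 with 6.88 ± 4.05 CPM per kb, Hoxc10 with 5.14 ± 1.39 and Hoxa7 with 5.08 ± 1.23, and these 3 and Hoxc8 lie within their spread of each other. In mutant Cre libraries Hoxb8 (6.75 ± 5.43), Hoxc10 (5.01 ± 1.79) and Hoxa7 (4.95 ± 1.18) followed Hoxc8 and likewise lay within their spread.

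**Figure D1:**
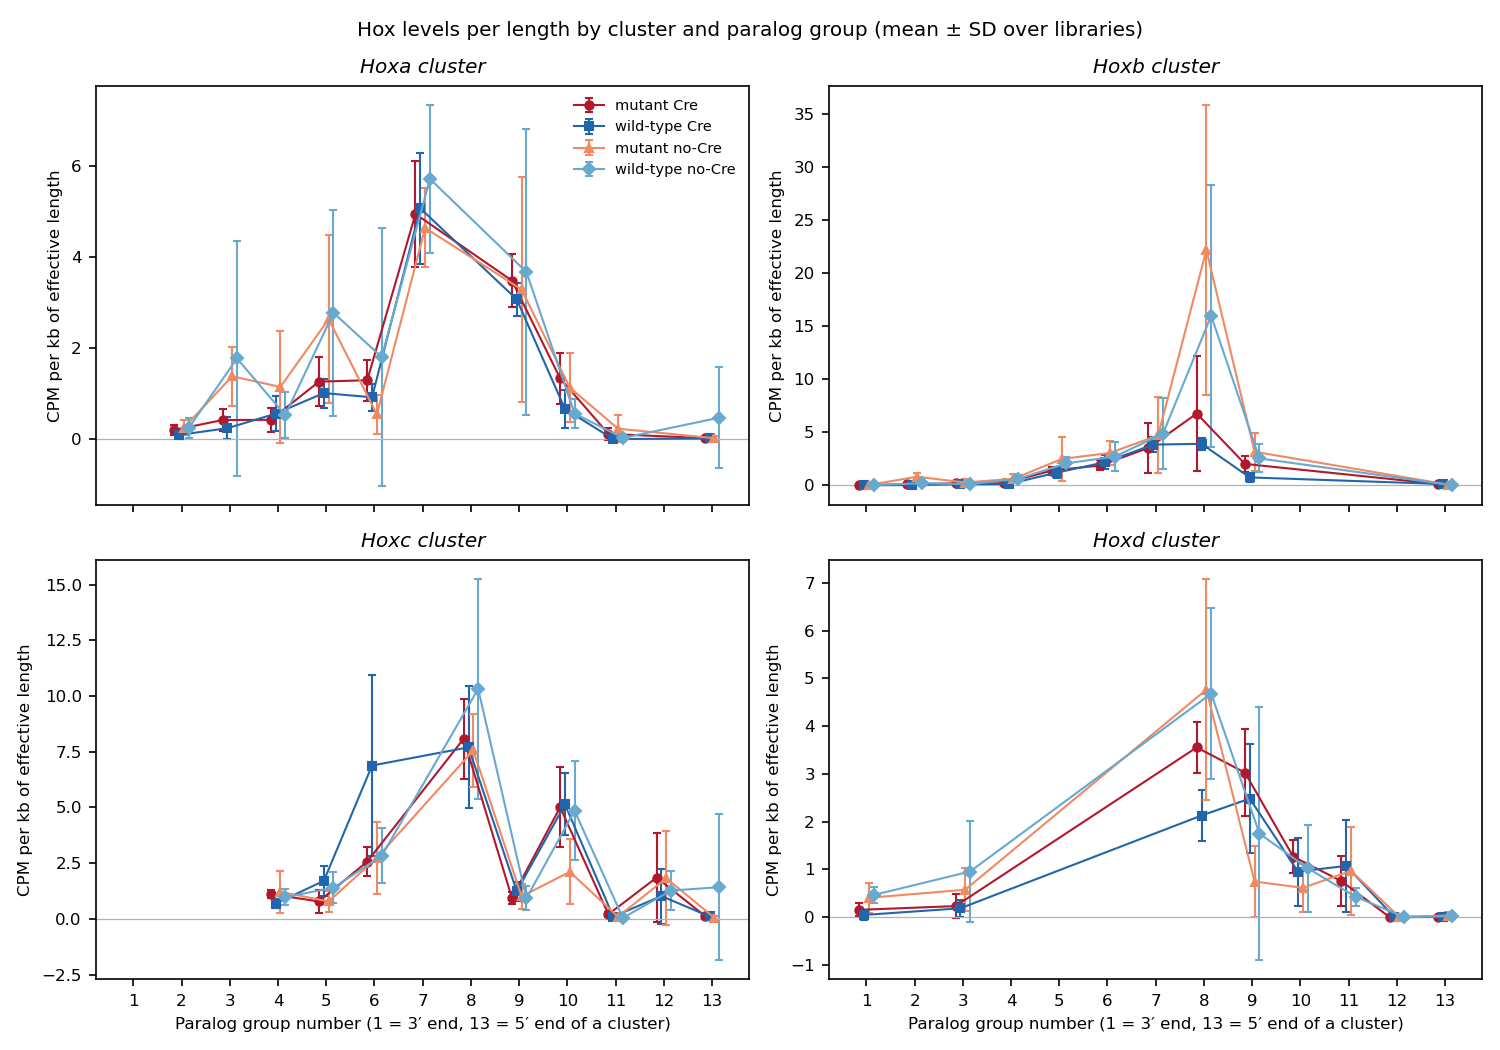
Level per length of Hox genes, ordered by cluster and paralog number, in CPM per kb, as group means with SD over 6 mutant Cre, 5 wild-type Cre, 6 mutant no-Cre and 6 wild-type no-Cre libraries. The tallest points are Hoxb8 in the no-Cre groups (22.2 and 16.0), and the ends of the Hoxb cluster lie near 0.

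Several genes at the ends of the clusters were nearly silent. Hoxb1 had 2 counts in all 23 libraries together, Hoxd12 had 3, Hoxd13 had 13, Hoxa13 had 32 and Hoxb13 had 61. Hoxa11 had 40 counts over the mutant Cre libraries and 0 over the wild-type Cre libraries, where a count of 0 allows up to 3 counts over the group. Hoxc13 had 223 counts in all, of which 134 came from wild-type no-Cre replicate 2, and was named after its values were seen. These members passed the filter on low counts in neither Cre comparison. The Hoxc cluster differed, since Hoxc4 at its anterior end had 328 counts over the mutant Cre libraries and Hoxc12 near its posterior end had 214, and both were tested and not called.

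Precipitates with Cre were set against precipitates without it, to ask which axial level the tagged cells carry relative to background. In mutants 27 of the 38 members passed the filter, and 1 rose and 4 fell with Cre (edgeR quasi-likelihood test, Benjamini-Hochberg adjusted over all genes tested), while 14.1% of all 12741 genes tested rose and 19.2% fell. In wild type 25 members passed, and 1 rose and 5 fell, while 20.0% of 12485 genes rose and 25.9% fell. Each of these 4 counts was a smaller share of the tested members than the share of all genes called in that direction. At an unadjusted p under 0.05 the counts were 10 of 27 in mutants and 8 of 25 in wild type, while 43.9% and 53.5% of all genes passed it, again a larger share than among the members. The median log2 fold change of the tested members was -0.25 in mutants and -0.20 in wild type, beside -0.14 over all genes in both comparisons.

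Within the clusters the Hoxb genes leaned to the background. All 7 Hoxb genes tested in mutants had a negative fold change, with a median of -0.90 on the log2 scale, and 3 were called lower (Hoxb2, Hoxb4 and Hoxb8). All 6 tested in wild type did too, with a median of -1.18, and 3 were called lower (Hoxb4, Hoxb8 and Hoxb9). Of all genes tested, 7007 of 12741 in mutants and 6685 of 12485 in wild type had a negative fold change. Hoxb13 was not tested. It had 37 counts with Cre and 4 without in mutants, and 19 and 1 in wild type. The medians of the Hoxa genes were -0.27 and -0.15, of the Hoxc genes -0.14 and 0.19, and of the Hoxd genes -0.21 and 0.04, in mutants and in wild type. Along the axis, the median was -1.63 over 4 genes of paralog groups 1 to 3 in mutants, -1.03 in groups 4 to 5, -0.34 in groups 6 to 8, -0.10 in group 9 and 0.30 in groups 10 to 13. In wild type the same classes gave -2.49 over 2 genes, -0.58, -0.29, 0.18 and 0.19. Only members that passed the filter enter these medians, and high counts without Cre help a member to pass. Of paralog groups 1 to 3, only 1 member passed between the 2 Cre groups and 3 passed between the 2 no-Cre groups. Hoxb2, tested in mutants only, had 38 counts there with Cre and 122 without. The filter itself can therefore pull down the medians of groups 1 to 3 and of the Hoxb genes. The medians of the paralog groups do not by themselves show a gradient. The calls of lower genes depended on the scaling of the libraries. With library totals only, no Hox gene was called lower in either genotype, 3 were called higher in mutants and none in wild type, and the median of all genes moved to 1.13 in mutants and -0.08 in wild type. So every call of a Hox gene as lower with Cre was lost under that setting.

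**Figure D2:**
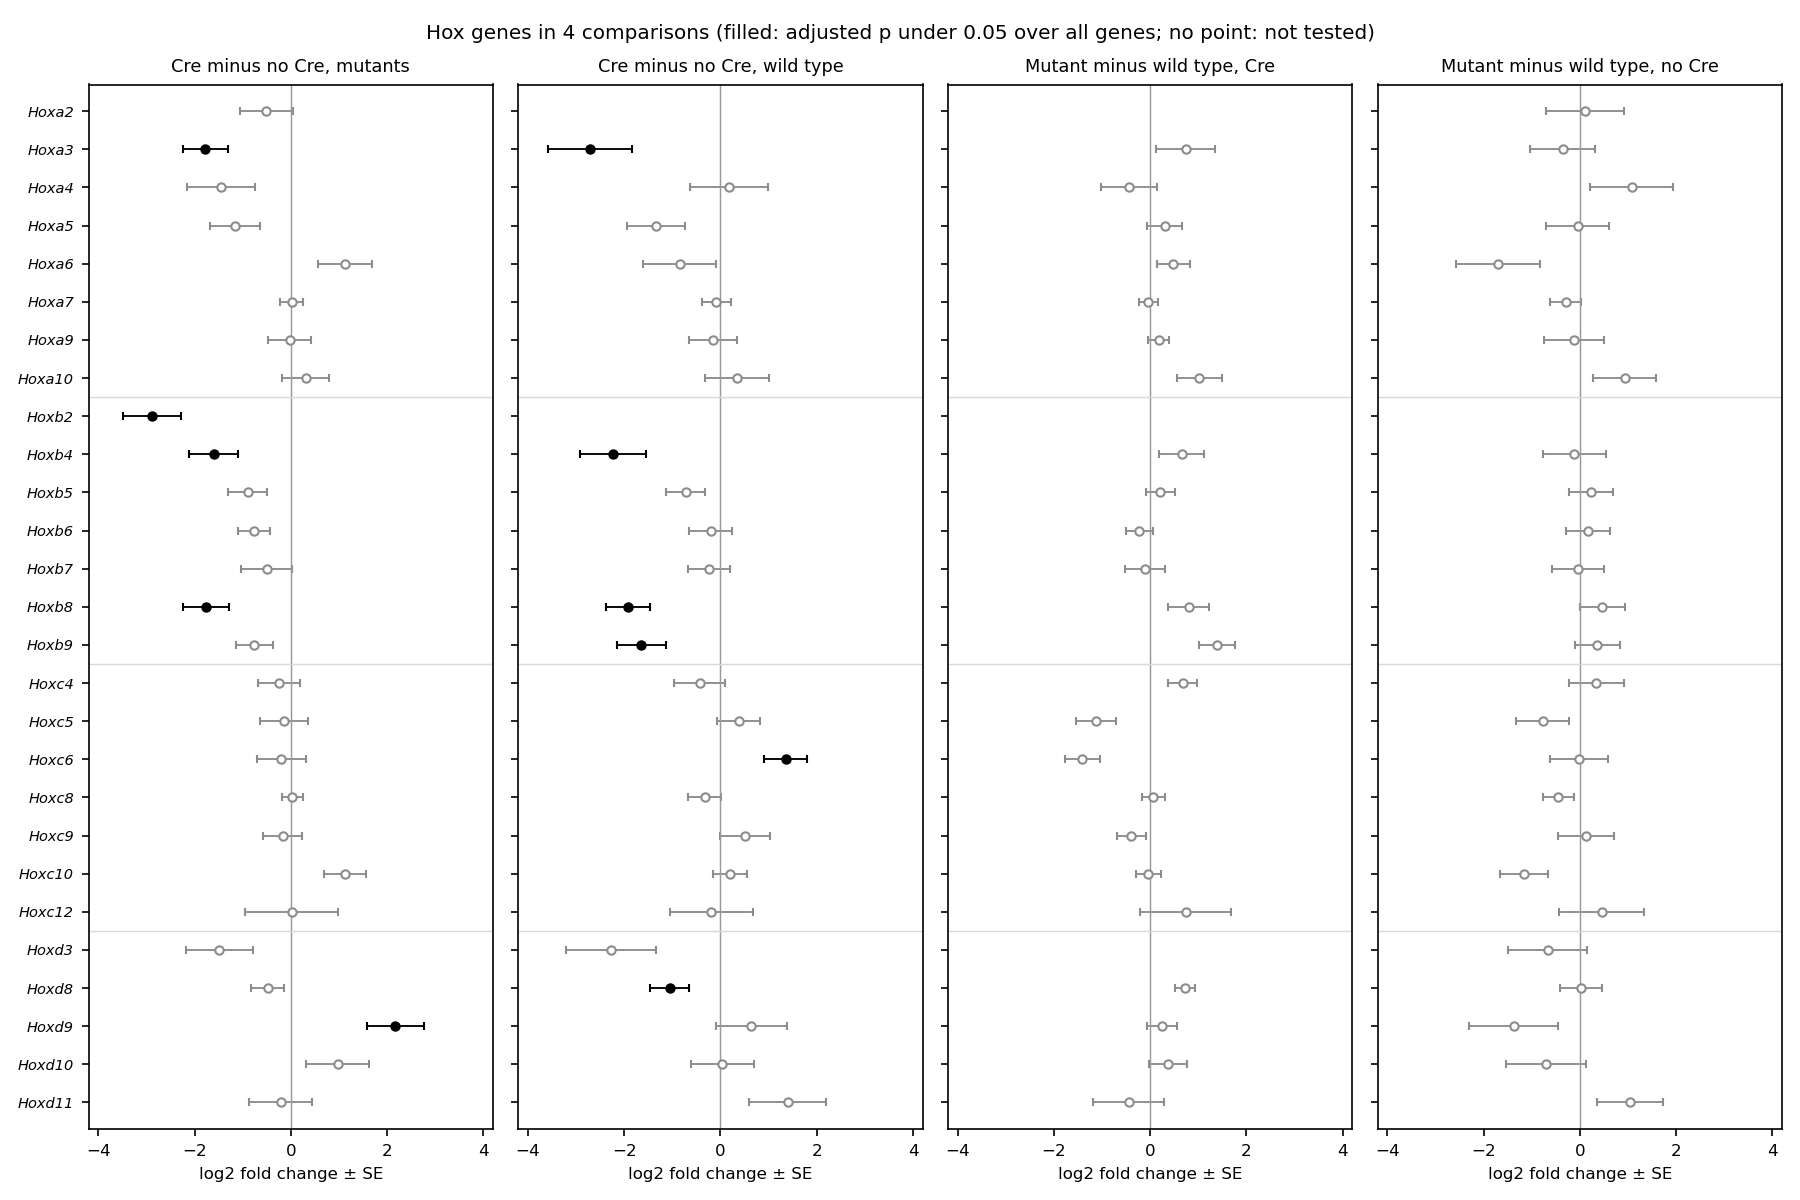
Log2 fold change with Cre over without Cre and its standard error for each Hox gene that passed the filter, in mutants and in wild type (the first 2 panels), ordered by cluster and paralog number. The last 2 panels give mutant over wild type with and without Cre. Filled points are called at an adjusted p under 0.05. Every tested Hoxb gene lies left of 0 in both genotypes, and Hoxd9 in mutants lies farthest right at 2.17.

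At the anterior end, Hoxa3, a gene of the hindbrain and pharyngeal arches, fell in both genotypes. It had 0.429 to 1.94 CPM (median 0.767) in mutant Cre libraries, against 1.87 to 5.51 (median 2.34) in mutant no-Cre libraries. Only the highest Cre library reached the lowest no-Cre library. The fold change was -1.78 ± 0.46 on the log2 scale (SE, adjusted p = 0.00784). In wild-type Cre libraries Hoxa3 had 0.595, 1.45, 0.331, 0.151 and 0.114 CPM, against 0.699 to 15.5 (median 1.63) in wild-type no-Cre libraries. The change was -2.71 ± 0.88 (adjusted p = 0.0184), and the 15.5 belongs to replicate 1 alone. With 1 of the 11 wild-type libraries left out, Hoxa3 passed the filter in only 7 fits. It stayed called in those, at an adjusted p of up to 0.0499. On the same strand, Hoxa3 shares exon bases with Gm28308, which has no entry of its own. Depth outside ribosomal RNA was mostly higher in mutant Cre than in mutant no-Cre libraries. It was mostly lower in wild-type Cre than in wild-type no-Cre libraries. Raw count sums, not scaled for depth, follow for genes that share exon bases with Hoxa3 on the opposite strand. Of these, 5730596B20Rik summed to 13 counts in mutant Cre libraries against 127 in mutant no-Cre libraries, and to 7 in wild-type Cre against 140 in wild-type no-Cre libraries. Hoxaas2 had 8 and Hoxaas3 had 65 counts in mutant Cre, against 2 and 75 in mutant no-Cre libraries, and they had 1 and 19 in wild-type Cre, against 73 and 154 in wild-type no-Cre libraries. The call in mutants ended without the 3 libraries titled 18405.

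Hoxb2, which acts in hindbrain segment and facial motor neuron identity, fell in mutants. It had 0.033 to 0.472 CPM (median 0.259) in mutant Cre libraries, against 1.08 to 3.52 (median 1.76) in mutant no-Cre libraries. The groups did not overlap, and the fold change was -2.89 ± 0.60 (adjusted p = 0.00174). In wild type it was too rare to be tested, with 5 counts over the Cre libraries and 50 over the no-Cre libraries. Its overlapping antisense gene Hoxb3os had 86 counts in mutant Cre and 90 in mutant no-Cre libraries, as raw sums not scaled for depth. The fitted change of Hoxb3os in mutants was -0.88, and it was not called.

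Hoxb4, expressed from the hindbrain boundary into the cervical cord, fell in both genotypes. It had 0.264 to 1.11 CPM (median 0.859) in mutant Cre libraries, against 1.00 to 5.87 (median 1.91) in mutant no-Cre libraries. The fold change was -1.60 ± 0.51 (adjusted p = 0.0244), and this call ended when any of 4 single libraries was left out (mutant Cre replicates 1, 2 and 6, mutant no-Cre replicate 5). It also ended at -1.18 (adjusted p = 0.0627) without the 3 no-Cre libraries of small scaling factor, at -1.70 (0.0658) without the libraries titled 18405, at -1.48 (0.0569) without the filter, at -0.94 (0.462) with a block for title number and at -0.13 (0.915) with library totals only. In wild-type Cre libraries it had 0.397, 0.483, 0.497, 0.453 and 0.569 CPM, against 0.121 to 3.51 (median 2.96) in wild-type no-Cre libraries. These Cre values were tight and all but 1 no-Cre library lay above them, with a fold change of -2.23 ± 0.69 (adjusted p = 0.0143). With 1 of the 11 wild-type libraries left out, Hoxb4 passed the filter in only 8 fits. It stayed called in those, at an adjusted p of up to 0.0387. The other genes of paralog groups 4 and 5 were not called in either genotype. Hoxa5, a phrenic motor neuron gene, had fold changes of -1.16 in mutants (adjusted p = 0.0932) and -1.34 in wild type (adjusted p = 0.0766), and its paralog Hoxc5 had -0.14 and 0.38.

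Hoxb8, a gene of the thoracic cord and dorsal horn that is also known for a role in microglia, was the most abundant Hoxb gene and fell in both genotypes. It had 6.45 to 35.6 CPM (median 8.64) in mutant Cre libraries, against 20.5 to 91.9 (median 36.8) in mutant no-Cre libraries. The change was -1.77 ± 0.48 (adjusted p = 0.0103), and only mutant Cre replicate 6 reached into the no-Cre range. In wild-type Cre libraries Hoxb8 had 9.33, 6.54, 7.45, 9.22 and 8.64 CPM, against 11.5 to 73.9 (median 25.3) in wild-type no-Cre libraries. The groups did not overlap, with a change of -1.93 ± 0.46 (adjusted p = 0.00284).

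The no-Cre libraries differed widely among themselves in Hoxb8. In wild type, replicates 1, 2 and 3, those of small scaling factor, had 54.1, 36.2 and 73.9 CPM, and replicates 4, 5 and 6, all titled 20401, had 11.8, 14.5 and 11.5. Without the 3 no-Cre libraries of small scaling factor in each genotype, the change was -0.51 in wild type (adjusted p = 0.0767) and -0.75 in mutants (adjusted p = 0.205). Leaving out mutant no-Cre replicate 4, at 91.9 CPM, put the adjusted p in mutants at 0.0501. Among libraries titled 18405, the only number shared by both mutant groups, 2 mutant Cre libraries averaged 0.15 higher on the log2(CPM + 1) scale than 1 mutant no-Cre library. Within wild type the difference was -2.61 under title number 20302 (2 libraries against 1) and -0.62 under 20401 (2 against 3).

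Mutant Cre replicates 4 and 6, both titled 18405, had the most Hoxb8 of the tagged libraries, at 19.0 and 35.6 CPM. They also had the most oligodendrocyte RNA of their group, at 5153 and 7100 CPM, and the least motor neuron RNA of that group, at 1205 and 982 CPM. Mutant no-Cre replicates 1 and 5, of small scaling factor, had more motor neuron RNA than these, at 1217 and 1562 CPM. The 9 microglial markers summed to 2.21 to 109 CPM (median 9.60) in mutant Cre and 2.27 to 7.02 (median 3.39) in wild-type Cre libraries, against 25.1 to 81.6 (median 39.3) in mutant no-Cre and 31.2 to 61.5 (median 39.0) in wild-type no-Cre libraries. The part of glial RNA in the Hoxb8 difference was not tested.

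**Figure D3:**
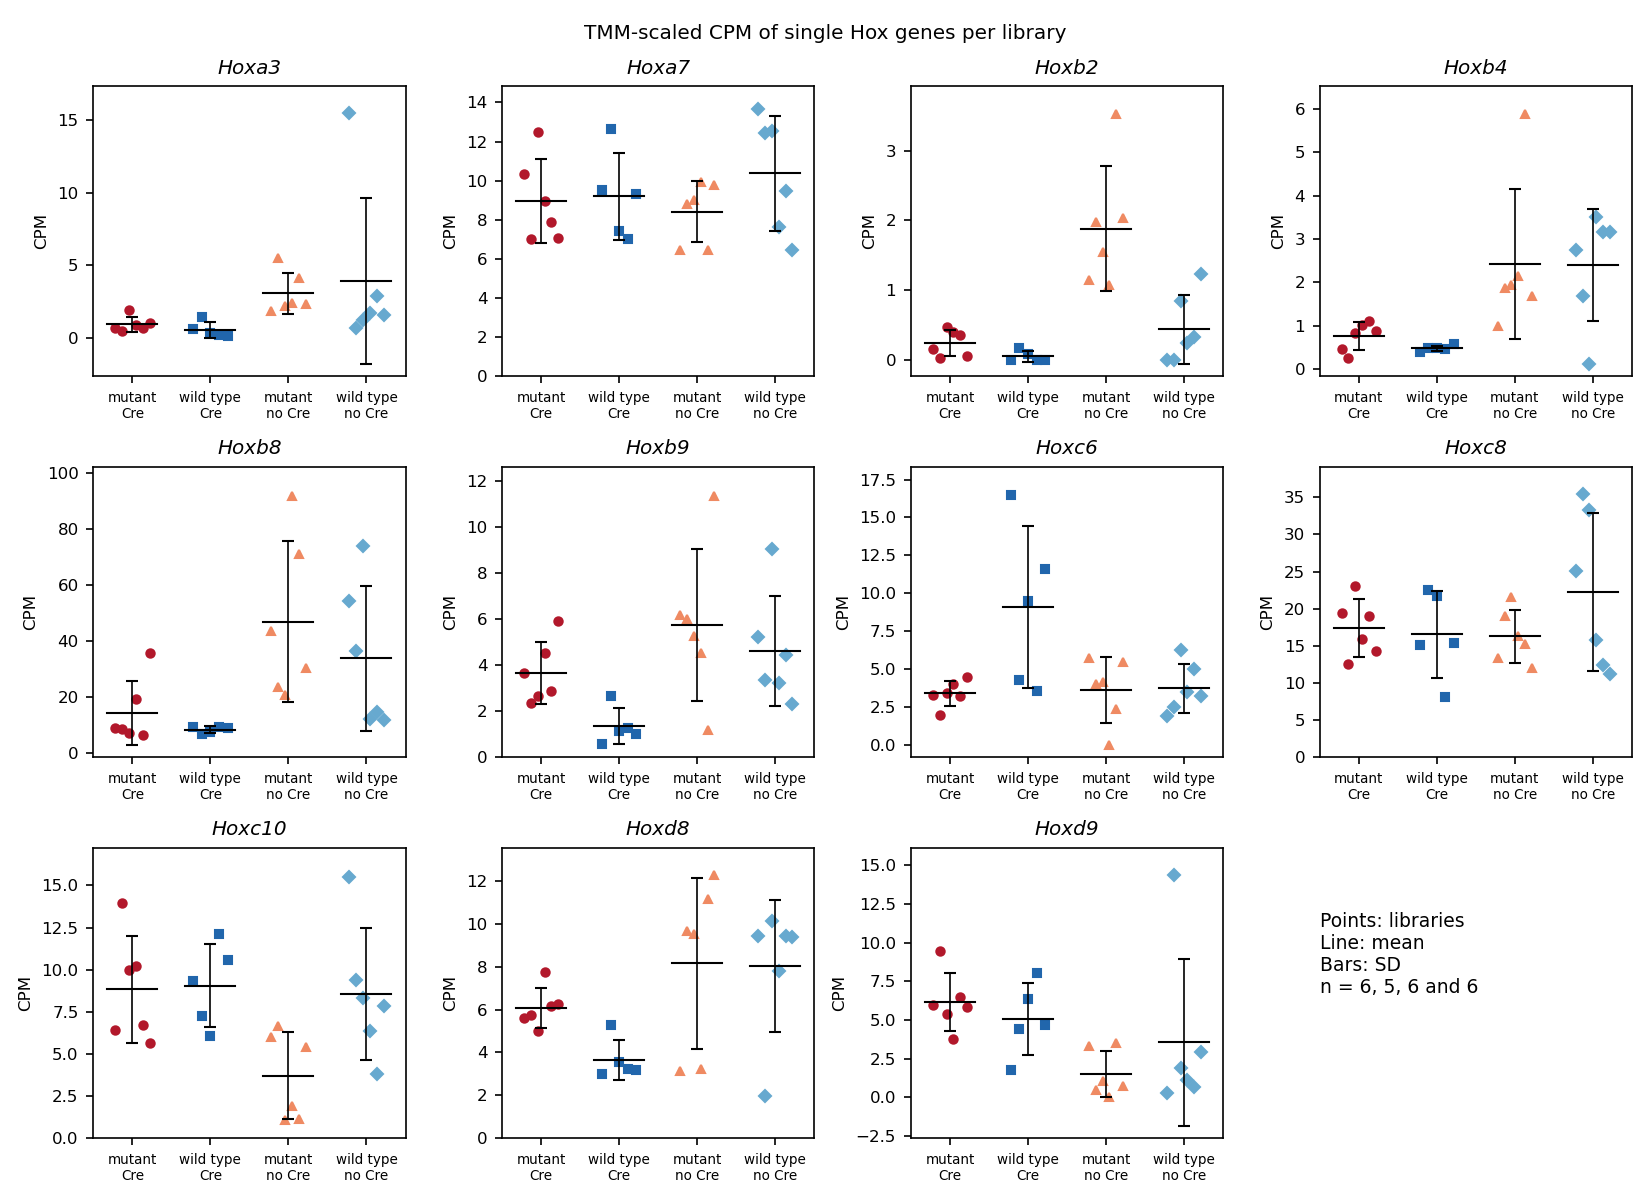
TMM-scaled CPM of 11 Hox genes in every library, 1 panel a gene, with mutant Cre (n = 6), wild-type Cre (n = 5), mutant no-Cre (n = 6) and wild-type no-Cre (n = 6) from left to right and bars at the group means. Hoxb8 separates the wild-type groups and spreads widely without Cre (11.5 to 91.9 CPM), while Hoxa7 and Hoxc8 lie at like levels in all 4 groups.

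The most abundant members of the Hoxa and Hoxc clusters lay at like levels with and without Cre. Hoxa7, a thoracic gene, had 7.02 to 12.5 CPM (median 8.43) in mutant Cre, against 6.46 to 9.92 (median 8.91) in mutant no-Cre libraries. In wild-type Cre libraries it had 9.52, 12.6, 7.45, 7.03 and 9.33, against 6.47 to 13.6 (median 11.0) in wild-type no-Cre libraries. Its fold changes were 0.02 ± 0.24 in mutants (adjusted p = 0.962) and -0.08 ± 0.29 in wild type (adjusted p = 0.834). Hoxc8, which patterns caudal brachial motor pools, had 12.6 to 23.1 CPM (median 17.5) in mutant Cre, against 12.04 to 21.5 (median 15.8) in mutant no-Cre libraries. It had 15.1, 22.6, 21.8, 8.09 and 15.4 in wild-type Cre, against 11.2 to 35.5 (median 20.4) in wild-type no-Cre libraries. All these ranges overlapped, and the changes were 0.03 ± 0.22 (adjusted p = 0.931) and -0.33 ± 0.35 (adjusted p = 0.454). Hoxc8 made up a median of 64.3% of the Hoxc8 and Hoxb8 counts together in mutant Cre and 64.0% in wild-type Cre libraries, against 26.0% in mutant no-Cre and 47.7% in wild-type no-Cre libraries.

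Hoxc6, the brachial limb-level gene, was the member called higher with Cre in wild type. It had 16.5, 4.30, 9.52, 3.55 and 11.6 CPM in wild-type Cre libraries, against 1.89 to 6.27 (median 3.36) in wild-type no-Cre libraries. Of the 5 tagged libraries 3 lay above the no-Cre range and 2 within it. The fold change was 1.35 ± 0.45 (adjusted p = 0.0210), and it was 1.063 (adjusted p = 0.0783) without wild-type Cre replicate 1, the library of small scaling factor at 16.5 CPM, and 0.93 (adjusted p = 0.481) with library totals only. In mutants the level was 1.98 to 4.45 CPM (median 3.35) with Cre, against 0 to 5.74 (median 4.08) without it, and the change was -0.20 ± 0.51 (adjusted p = 0.796). Whether the 2 Cre effects differ is given with the interaction test.

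Hoxb9, a thoracic gene, fell with Cre in wild type, at 0.595, 2.68, 1.16, 1.28 and 1.02 CPM in wild-type Cre libraries, against 2.33 to 9.04 (median 3.90) in wild-type no-Cre libraries. Wild-type Cre replicate 2 alone reached the no-Cre range. The fold change was -1.64 ± 0.50 (adjusted p = 0.0139), and it was -1.12 (adjusted p = 0.0595) without the 3 no-Cre libraries of small scaling factor. With a block for title number, which in wild type keeps the libraries titled 20302 and 20401, it was -1.31 (adjusted p = 0.0679). In mutants it had 2.34 to 5.90 CPM (median 3.28) with Cre, against 1.17 to 11.3 (median 5.64) without it, with a change of -0.76 ± 0.39 (adjusted p = 0.143). Hoxc9, the thoracic motor column gene, had changes of -0.17 (adjusted p = 0.776) in mutants and 0.51 (adjusted p = 0.440) in wild type. Hoxc9 held a median of 35.9% of the Hoxc9 and Hoxb9 counts in mutant Cre and 67.9% in wild-type Cre libraries, against 33.4% in mutant no-Cre and 34.0% in wild-type no-Cre libraries.

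Hoxd8 and Hoxd9 are neighbours on chromosome 2, and in neither genotype were both called. Hoxd9, a posterior gene and a paralog of Hoxc9, had 3.77 to 9.46 CPM (median 5.92) in mutant Cre libraries, against 0 to 3.52 (median 0.916) in mutant no-Cre libraries. The groups did not overlap, and the change was 2.17 ± 0.59 (adjusted p = 0.00976). It remained called without any 1 of the 12 libraries and under 8 other settings, with log2 changes of 1.93 to 3.88. The block for title number, which keeps 2 mutant Cre libraries against 1 mutant no-Cre library, is not counted here. In wild-type Cre libraries Hoxd9 had 1.79, 4.43, 6.37, 8.01 and 4.66 CPM, against 0.290 to 14.4 (median 1.52) in wild-type no-Cre libraries. The 14.4 belongs to wild-type no-Cre replicate 2, and the other 5 had 0.290 to 2.95. The change was 0.64 ± 0.74 with that library (adjusted p = 0.499) and 1.91 without it (adjusted p = 0.00769).

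Hoxd8 fell in wild type. It had 2.98, 5.26, 3.56, 3.25 and 3.18 CPM in wild-type Cre libraries, against 1.96 to 10.1 (median 9.40) in wild-type no-Cre libraries, where only replicate 2 was under 7.78. The change was -1.05 ± 0.40 (adjusted p = 0.0406), a call that ended without any 1 of 8 of the 11 libraries. In mutants it had 4.98 to 7.73 CPM (median 5.96) with Cre, against 3.16 to 12.3 (median 9.59) without, and a change of -0.48 ± 0.34 (adjusted p = 0.297). Together, Hoxd9 made up a median of 51.4% of the counts of the pair in mutant Cre (32.8% to 62.3%) and 59.4% in wild-type Cre libraries (37.5% to 71.1%), against 7.98% in mutant no-Cre (0% to 51.1%) and 14.3% in wild-type no-Cre libraries (2.99% to 88.0%). This share does not depend on the scaling of the libraries, and the difference between the 2 genes was not tested.

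At the lumbar level, Hoxc10, a gene of hindlimb-level motor neurons, had 5.65 to 13.9 CPM (median 8.38) in mutant Cre libraries, against 1.11 to 6.67 (median 3.67) in mutant no-Cre libraries. The change was 1.12 ± 0.43 and just missed the threshold (adjusted p = 0.0562). It passed under 7 of 8 other settings, again without the block, among them DESeq2 (1.24, adjusted p = 0.0161). In wild type it had 9.33, 7.24, 6.04, 12.1 and 10.6 CPM with Cre, against 3.83 to 15.5 (median 8.10) without it, and a change of 0.19 ± 0.35 (adjusted p = 0.682). Hoxc10 was followed because its value lay just outside the threshold, and it shares exon bases with the Hoxc5 entry. Hoxd10, which acts with it at the lumbar limb level, had changes of 0.97 (adjusted p = 0.262) and 0.04 (adjusted p = 0.964), and Hoxa10 had 0.30 and 0.34, all short of the threshold.

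The mixture of Hox mRNA along the axis is seen without library scaling when each class is given as a share of all Hox counts of its library. Hoxc genes held 35.9 ± 5.19% in mutant Cre and 45.3 ± 6.37% in wild-type Cre libraries, against 23.05 ± 7.72% in mutant no-Cre and 31.0 ± 4.14% in wild-type no-Cre libraries (SD, n = 6, 5, 6 and 6). Hoxb genes held 26.7 ± 10.5% and 21.5 ± 1.40% with Cre in mutants and wild type, against 48.0 ± 11.9% and 36.1 ± 6.30% without it. Hoxa genes varied little, between 17.9 ± 2.70% in mutant no-Cre and 20.5 ± 3.51% in mutant Cre libraries, and Hoxd genes lay between 11.0 ± 3.58% in mutant no-Cre and 17.0 ± 4.00% in mutant Cre libraries. The classes of a library share the same total, so a lower Hoxb share by itself raises the others. Hoxb8 alone held 2207 of 9186 Hox counts in mutant no-Cre and 2198 of 12075 in wild-type no-Cre libraries. With Cre it held 1956 of 16318 in mutants and 484 of 6130 in wild type. The median log2 fold change of the Hoxc genes was -0.14 in mutants and 0.19 in wild type. The higher Hoxc shares therefore do not by themselves show more Hoxc mRNA with Cre.

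By position, paralog groups 1 to 3 held 2.63 ± 0.645% in mutant Cre and 1.48 ± 1.12% in wild-type Cre libraries, against 6.07 ± 2.39% in mutant no-Cre and 6.27 ± 3.97% in wild-type no-Cre libraries. Groups 10 to 13 held 17.5 ± 5.62% and 16.9 ± 6.71% with Cre in mutants and wild type, against 8.15 ± 3.98% and 11.8 ± 3.60% without. Group 9 held 14.9 ± 2.53% and 12.9 ± 2.89% with Cre, against 9.23 ± 3.06% and 9.71 ± 1.34% without. The middle groups 6 to 8 held the largest share throughout, at 54.1 ± 6.40% and 56.5 ± 8.46% with Cre, against 63.3 ± 5.91% and 58.3 ± 7.00% without. For every class given in this paragraph, the ranges with and without Cre overlapped in both genotypes. These shares are descriptions, and no test was run on them. As with the clusters, a lower share of any class by itself raises the shares of the rest.

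**Figure D4:**
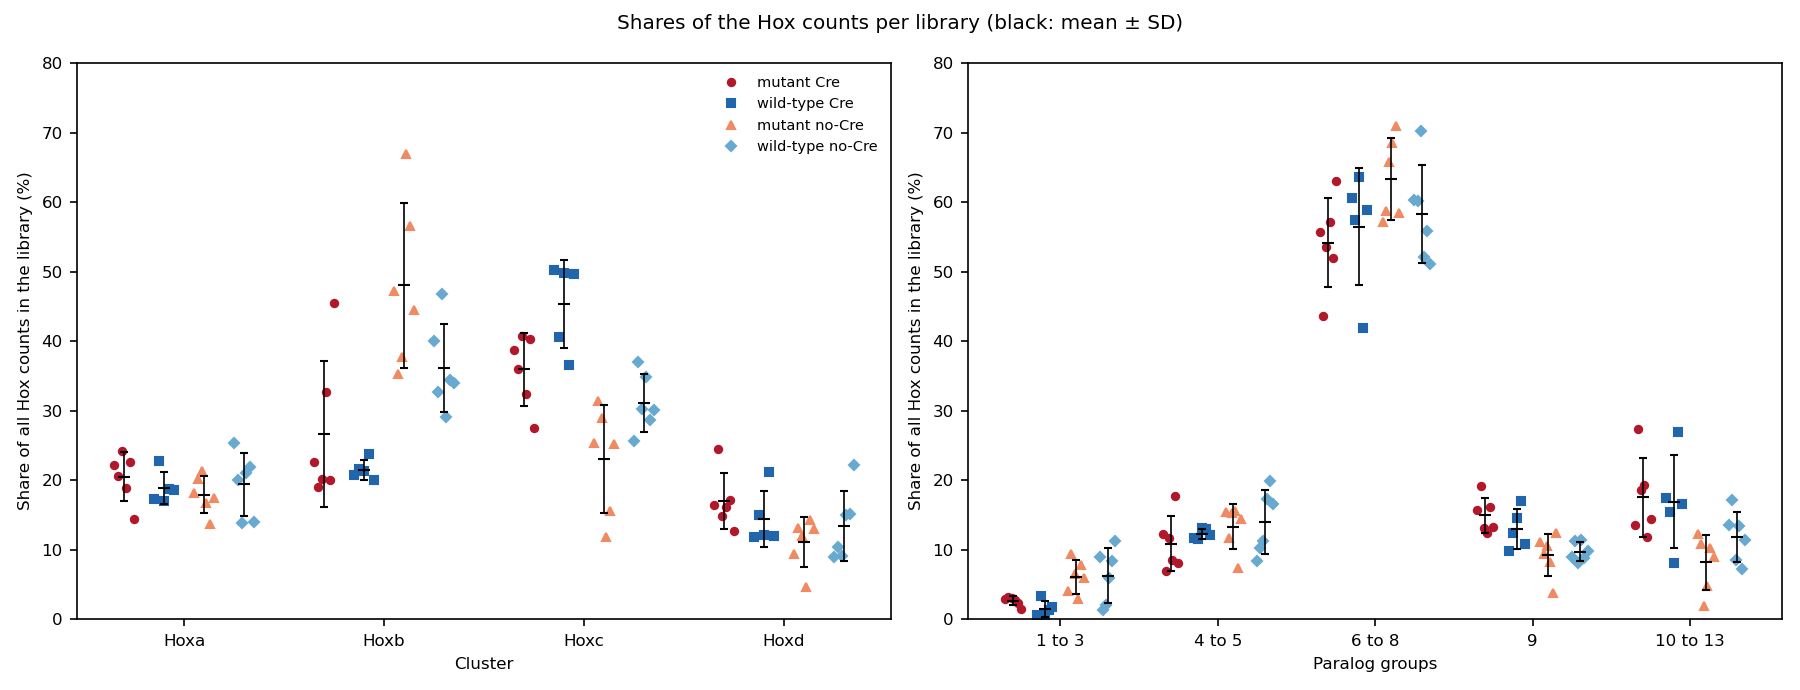
Share of all Hox counts of a library held by each cluster and by each class of paralog groups, in percent, with 1 point a library and the mean and SD of each group, for mutant Cre, wild-type Cre, mutant no-Cre and wild-type no-Cre from left to right. Hoxb shares are lower and Hoxc shares higher with Cre (26.7 and 21.5% against 48.0 and 36.1%, and 35.9 and 45.3% against 23.05 and 31.0%). The clusters share the same total in a library, so a lower Hoxb share by itself raises the others.

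Other parts of the Hox system were compared the same way. Of 16 motor column and pool genes, 13 were tested in mutants, of which 5 rose and none fell, and 12 in wild type, of which 7 rose and none fell. Of all genes, 14.1% rose and 19.2% fell in mutants, and 20.0% and 25.9% in wild type. The changes of 5 of the 13 and 4 of the 12 were negative. The highest change in wild type, 6.53, was also the highest of the motor neuron and cholinergic markers, so the 2 sets overlap. Mnx1, the motor neuron homeodomain gene, rose by 3.40 in mutants (adjusted p = 0.000381) and by 6.53 in wild type (adjusted p = 3e-06), and Ret, the GDNF receptor, rose by 2.95 (adjusted p = 3.89e-05) and 4.07 (adjusted p = 4.7e-08) on the log2 scale.

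Among 20 tested Polycomb and trithorax regulators, which keep Hox clusters silent or active, 2 rose and 6 fell in mutants, and 3 rose and 9 fell in wild type, where 14.1% and 19.2% of all genes rose and fell in mutants and 20.0% and 25.9% in wild type. Their median log2 fold change was -0.66 and -1.01, beside -0.14 over all genes. Kmt2a, the trithorax methyltransferase, fell by 1.90 in mutants (adjusted p = 1.92e-05) and by 1.98 in wild type, and Ezh2, the Polycomb methyltransferase, fell by 2.07 in mutants (adjusted p = 0.00316). Of the axis patterning genes 5 were tested in mutants and 4 in wild type, with 1 higher and 1 lower in each. Their log2 changes ran from -1.27 to 2.11 in mutants and from -1.86 to 1.75 in wild type. Gdf11, a signal of the caudal cord that acts on posterior Hox genes, fell by 1.27 (adjusted p = 0.00323) and by 1.67 (adjusted p = 0.00354). Of 11 forebrain, midbrain and hindbrain patterning genes none passed the filter in mutants and only Gbx2 did in wild type, where it rose by 3.31 (adjusted p = 0.0193). Of 15 Hox-locus noncoding RNAs listed, 8 were found by symbol, and of these only Hoxb3os was tested, in mutants, at -0.88 (adjusted p = 0.340). RNAs held under another symbol were missed. Hoxd3os1, held as 1700109F18Rik, was not in this set. It had 316 counts in mutant Cre and 151 in wild-type Cre libraries, against 92 in mutant no-Cre and 277 in wild-type no-Cre libraries. These sums are not scaled for depth.

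The effect of the Gars mutation on the tagged cells was then compared. No Hox gene of the 24 tested was called between mutant and wild-type Cre libraries (edgeR), where 0.234% of all 12399 genes rose and 0.0968% fell, and 6 members had an unadjusted p under 0.05, which 17.0% of all genes had. DESeq2 called Hoxb9 higher and Hoxc6 lower, beside 122 genes higher and 291 lower of all tested. Hoxc6 averaged 3.40 ± 0.84 CPM in mutant Cre and 9.09 ± 5.35 CPM in wild-type Cre libraries (SD, n = 6 and 5). Its change was -1.41 ± 0.37 (SE, adjusted p = 0.110), and every mutant library lay below the wild-type median. Hoxb9 averaged 3.66 ± 1.35 CPM in mutant Cre and 1.35 ± 0.79 CPM in wild-type Cre libraries, a change of 1.38 ± 0.37 (adjusted p = 0.113). Hoxd8 averaged 6.09 ± 0.93 in mutant Cre and 3.65 ± 0.93 in wild-type Cre libraries, a change of 0.73 ± 0.21 (adjusted p = 0.136), and only wild-type Cre replicate 2, at 5.26, reached the mutant range of 4.98 to 7.73. Hoxc5 differed by -1.12 ± 0.41 (adjusted p = 0.218).

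Wild-type Cre replicate 2 lay within the mutant Cre range in all 4 of these genes, as did wild-type Cre replicate 4 in Hoxc6 and Hoxc5. Replicate 2 had 1.89 CPM of Hoxc5, and it had the most oligodendrocyte RNA of the wild-type Cre libraries, at 3013 CPM against 547 to 773 in the other 4. Without it, these 4 genes were called by edgeR, with Hoxb9 at 1.77 (adjusted p = 0.0174), Hoxd8 at 0.88 (adjusted p = 0.0275), Hoxc6 at -1.60 (adjusted p = 0.0200) and Hoxc5 at -1.34 (adjusted p = 0.0480). That library was singled out after its values were seen. The share of all genes called without it is not given here, so the 4 calls cannot be read as particular to Hox genes. Beside these values stand the marker sums of the groups: the oligodendrocyte genes had a median fold change of 1.58 on the log2 scale between mutant and wild-type Cre libraries and the motor neuron genes one of -0.69, with none of 9 and none of 11 called. Their part in the Hox values was not tested.

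Between mutant and wild-type no-Cre libraries none of 26 Hox genes was called, nor was any other gene of 12588 tested (0% higher and 0% lower, edgeR), and DESeq2 called none of the Hox genes either. Hoxc10 alone had an unadjusted p under 0.05, which 4.49% of all genes had. It had 1.11 to 6.67 CPM (median 3.67) in mutant no-Cre libraries, against 3.83 to 15.5 (median 8.10) in wild-type no-Cre libraries, a change of -1.15 ± 0.50 (adjusted p = 0.951).

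The Cre effects of the 2 genotypes were compared directly over all 23 libraries. None of 29 Hox genes was called in this interaction by edgeR or by DESeq2. By edgeR, 0.0138% of 14468 genes were called higher and 0.00691% lower, and 2 Hox genes had an unadjusted p under 0.05, Hoxa6 at 2.12 and Hoxc13 at 5.25 (adjusted p = 0.459 and 0.390), while 10.5% of all genes had one. The Hoxc13 value rests on the 134 counts of wild-type no-Cre replicate 2. Hoxc6, called with Cre in wild type and not in mutants, had an interaction of -1.41 ± 0.70 (adjusted p = 0.483), so its Cre effects were not shown to differ. Hoxd9, called in mutants and not in wild type, had 1.66 ± 0.99 (adjusted p = 0.542), Hoxd8 had 0.71 ± 0.52 (adjusted p = 0.620), Hoxb9 had 1.00 ± 0.62 (adjusted p = 0.557) and Hoxb8 had 0.32 ± 0.68 (adjusted p = 0.886).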

How the data were processed

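The authors deposited, for each library, a gene table with expected counts, TPM and FPKM, made with Bowtie2 2.2.0 and RSEM 1.2.12 per the submitters' processing notes. The sources used here give no genome build, annotation or use of strand. Expected counts were rounded to whole numbers and tested with edgeR 4.0.16 in R 4.3.3 (filterByExpr settings min.count 10 and min.total.count 15, trimmed mean of M-values scaling, quasi-likelihood F test, Benjamini-Hochberg adjustment over all genes tested, called at an adjusted p under 0.05), fitting the 2 groups compared or, for the interaction, all 23 libraries. Standard errors are the absolute log2 fold change divided by the square root of F. CPM were scaled over all 23 libraries, with ribosomal RNA kept in the library size, so levels are low in absolute terms. Levels per kb were divided by the mean effective length. The deposited TPM were an alternative for the shares, and the deposited FPKM were not used. DESeq2 1.42.0 was an alternative test. Counts come from reads without molecular identifiers, and limits from a count of 0 cover counting error only. Ribosomal RNA and ribosomal RNA-like genes (Gm26924, Gm15662, Lars2, mt-Rnr1 and mt-Rnr2), which hold most counts, were removed in 1 alternative. The fits were tested on simulated data with known changes. A log2 change of 1 was called in 4.63% of changed genes for Cre in wild type and 12.2% in mutants. It was called in 21.3% for genotype with Cre and in 2.27% without Cre. For a log2 change of 2 these values were 50.6%, 78.5%, 81.6% and 38.8%. The simulation called 50 genes for Cre in wild type and 89 in mutants. In the data 2503 genes rose and 3235 fell in wild type, and 1800 and 2447 in mutants. The adjustment was therefore stricter in the simulation, and its rates can understate what the Cre comparisons detect. A gene that is not called can still differ. Per-library values were given for members called in any comparison and for the most abundant member of each cluster. Hoxc10, Hoxc5 and Hoxc13 were added after their values were seen. The members and the gene lists were chosen with earlier results of these data known. A few genes are not reported here.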

Additional observations from a re-analysis of the deposited data

Results flagged for a closer look

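Libraries far from the rest of their group were looked for in the 11 Hox genes with per-library values, by the gap of the highest or lowest library to its neighbour over the range of the group (Dixon's test at 95%). Of 44 groups of libraries 5 stood out, where chance gives about 1 in 20. In wild-type no-Cre replicate 1, Hoxa3 had 15.5 CPM and the other 5 libraries 0.699 to 2.87. Wild-type no-Cre replicate 2 stood out in 2 genes, with 14.4 CPM of Hoxd9 beside 0.290 to 2.95 in the others and 1.96 CPM of Hoxd8 beside 7.78 to 10.1. In mutant no-Cre replicate 5, the library with the smallest scaling factor (0.125), Hoxb4 had 5.87 CPM and the others 1.00 to 2.16. Hoxd8 was also high in wild-type Cre replicate 2, at 5.26 CPM beside 2.98 to 3.56 in the other 4.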

How the results depend on the processing

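Depth limits genes at several cluster ends (not Hoxc4 or Hoxc12), which had too few counts to be tested. Without the trimmed-mean scaling (library totals only) no Hox gene fell in either genotype (0 and 0), 3 rose in mutants and 0 in wild type, and Hoxb9, Hoxc6 and Hoxd8 turned to 0.26, 0.86 and 0.58 in mutants. The 4 fallers and 1 riser of the mutants otherwise became 2 risers with RLE factors, no filter, no ribosomal RNA genes, all 23 libraries in one fit or without title number 18405 (which left 2 fallers), 3 risers with DESeq2, and 3 with a block for title number, which keeps only the libraries titled 18405 and turns Hoxb8 to 0.23 and Hoxc6 to 0.10. In wild type, all 23 libraries in one fit gave 9 fallers, and leaving out the 3 no-Cre libraries of small scaling factor (chosen after seeing the data) gave 2 risers, Hoxc6 and Hoxd9. Leaving out 1 library gave 1 to 2 risers and 3 to 4 fallers in mutants, and 0 to 2 risers and 2 to 6 fallers in wild type. Between genotypes with Cre, DESeq2 gave 1 Hox gene higher and 1 lower, and leaving out 1 library gave 0 to 2 higher and 0 to 2 lower. For most of these settings the share of all genes called is not given here. Their counts of Hox genes therefore show only how the calls move, and not whether Hox genes differ from other genes. The fold change of Hoxc10 in wild type ranged from -0.0094 to 0.41 with 1 library left out and that of Hoxc6 in mutants from -0.29 to 0.13. The Hoxb8 interaction was -0.67 without title number 18405, -0.23 without the no-Cre libraries of small scaling factor and -0.20 to 0.64 with 1 library left out. From TPM, the shares of paralog groups 4 to 5 in wild-type Cre, Hoxa in mutant no-Cre and group 9 in wild-type no-Cre libraries were 9.16%, 22.4% and 11.9%. The causes were not tested. The setting without title number 18405 was not run for the wild-type Cre comparison, which has no such library. No paired analysis was possible because replicate numbers follow the order of the labels and pair no libraries.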
